A study of Mus musculus with 14 samples.

Results

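Open chromatin of rods was compared with that of green cones sorted a single time, over 200 bp elements read by ATAC-seq, which cuts and tags DNA where the transposase Tn5 can reach it. The comparison took the 2 rod and the 2 single-sorted green cone libraries out of 8 ATAC-seq libraries and 14 libraries in all, and its members were the elements that passed a filter on low counts, 50593 of the 53204 in the table. The other 2611 elements were too low in these 4 libraries to be tested.

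Rods came from Nrl-eGFP mice, in which a fragment of the Nrl promoter drives GFP, and green cones from Opn1mw-GFP mice, in which GFP marks cells that use the medium-wavelength opsin promoter. All mice were C57BL/6 and 8 weeks old, and GFP-positive cells were taken from dissociated retinas by flow cytometry. The other ATAC-seq libraries were 2 of green cones sorted again (double-sorted, replicates 3 and 4) and 2 of photoreceptors of Nrl-eGFP mice without Nrl (Nrl-/- photoreceptors, which the labels call blue cones). RNA-seq was made of rods and of Nrl-/- photoreceptors, 3 libraries each, and no RNA of green cones was analysed here.

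Rods sense dim light and cones sense bright light and colour, and each type runs its own set of phototransduction proteins. NRL, a bZIP protein of the MAF family, drives rod fate together with the nuclear receptor NR2E3, and the homeodomain protein CRX acts in both types. Adult mouse rods have an inverted nucleus, with heterochromatin in the centre, whereas cone nuclei keep the usual layout. A single sort for a rare cell such as the cone can carry over some rods, which are the most common cells of the mouse retina. Elements with next to no signal in rods are therefore of special use here, because carried-over rods cannot bring signal to them.

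The rod libraries held 5170146 and 5770075 counts in elements and the single-sorted green cone libraries 3940065 and 2131701. Replicates correlated at r = 0.968 across elements in rods and 0.899 in single-sorted green cones on the log2 scale (0.919 in Nrl-/- photoreceptors and 0.702 in double-sorted green cones). The study calls the replicates biological, but the labels do not say whether they came from separate mice, so that p-values measure the spread between libraries. Levels below are counts per 1000000 of the scaled library (CPM), and fold changes are rods over green cones on the log2 scale, negative where green cones were more open. An element was called where edgeR's quasi-likelihood test against a log2 fold change of 1 gave a Benjamini-Hochberg adjusted p under 0.1.

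Both labels were first held against the genes behind them. At an element in an Nrl intron (chr14:55521184-55521383, GRCm38) the rods had 97 and 103 CPM, the single-sorted libraries 42.8 and 30.8, the double-sorted ones 17.1 and 17.2, and both Nrl-/- libraries had 0. A sample list of the study gives the mouse line of the first single-sorted library as the Nrl-deficient one, whereas the deposited label gives Opn1mw-GFP. Its 42.8 CPM stands at an element without a count in both Nrl-/- libraries, and the deposited label was kept. Without that library 7567 elements were called more open in green cones and 2214 in rods, and without the other single-sorted library 7779 and 1116. The promoter element of Opn1mw (chrX:74127295-74127494), the medium-wavelength opsin of green cones, had 0.403 and 0 CPM in rods and 14.6 and 10.4 in single-sorted green cones. Every green cone library lay above both rod libraries there, and the log2 fold change was -5.84 ± 0.72 (SE). Both single-sorted libraries exceeded both rod libraries at 41.5% of all tested elements, and with 2 and 0 counts in rods this element entered through green cones. By their labels green cones carry the Opn1mw-GFP transgene and rods do not. Reads of its promoter, where it covers this element, cannot be told apart from those of the Opn1mw locus.

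Sequences are shown for 3 non-exonic elements among those with the lowest p in each direction, as read from the forward strand of GRCm38 (RefSeq assembly). Capitals mark matches, on either strand, of the motifs TAATCC (CRX and OTX2), TAATTA (RAX), CATATG (NEUROD1), AGGTCA (nuclear receptors), TGCTGAC (the MAF family) and TGANTCA (bZIP proteins). The first 3 elements had the higher level in green cones. Each is named by the gene with the nearest start site.
Gm31447 chr12:68602807-68603006: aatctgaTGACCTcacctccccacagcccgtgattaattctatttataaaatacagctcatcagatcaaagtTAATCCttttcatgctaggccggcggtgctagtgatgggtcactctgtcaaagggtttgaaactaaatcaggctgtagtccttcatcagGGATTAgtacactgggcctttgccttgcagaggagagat
Acoxl chr2:127895058-127895257: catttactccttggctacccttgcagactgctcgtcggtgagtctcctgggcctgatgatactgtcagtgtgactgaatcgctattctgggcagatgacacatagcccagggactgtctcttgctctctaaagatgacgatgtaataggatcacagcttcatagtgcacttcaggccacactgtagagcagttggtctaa
Mettl2 chr11:105120645-105120844: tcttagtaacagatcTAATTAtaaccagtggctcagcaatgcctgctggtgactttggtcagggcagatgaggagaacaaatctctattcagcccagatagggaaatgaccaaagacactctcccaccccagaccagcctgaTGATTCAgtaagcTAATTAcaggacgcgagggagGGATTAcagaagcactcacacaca

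The element nearest Gm31447 lay 527 kb from that gene's start site, in a region without annotated genes. It had 0.807 and 1.46 CPM in rods, 65.9 and 77.5 in single-sorted green cones and 115 in both Nrl-/- libraries. It holds 2 matches of TAATCC and 1 of AGGTCA. The element in an intron of Acoxl, an acyl-CoA oxidase-like gene, had 0.403 and 0.364 CPM in rods and 54.0 and 89.3 in single-sorted green cones, and none of the motifs above. Near Mettl2, a tRNA methyltransferase gene, rods had 0.403 and 0.364 CPM and green cones 47.4 and 56.7, and the element holds 4 matches. In all of these the green cone libraries stood far above the rod libraries without overlap, which follows from their choice by lowest p. Their rod counts fell short of the filter on low counts, so they entered the test only through green cones. Both green cone libraries exceeded both rod libraries at 41.5% of all tested elements.

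Other green cone elements of lowest p lay in promoters. That of Gramd3, a GRAM-domain gene, had 0.807 and 1.28 CPM in rods and 66.9 and 82.5 in single-sorted green cones, and that of Chst2, a carbohydrate sulfotransferase gene, 0.403 and 0.729 against 45.5 and 55.8. The promoter element of the noncoding gene 4930434J06Rik had 0.403 and 0 CPM in rods and 48.9 and 53.5 in green cones, with 7.56 and 5.31 in Nrl-/- photoreceptors. The Nrl-/- libraries lay between rods and green cones there, whereas at Gramd3 they had 75.6 and 75.2 CPM.

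The next 3 elements were more open in rods.
Runx1 chr16:93021222-93021421: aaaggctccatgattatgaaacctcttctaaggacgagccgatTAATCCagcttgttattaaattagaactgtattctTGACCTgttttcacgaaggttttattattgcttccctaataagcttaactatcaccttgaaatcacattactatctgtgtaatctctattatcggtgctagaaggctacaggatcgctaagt
Gm51288 chr11:86920466-86920665: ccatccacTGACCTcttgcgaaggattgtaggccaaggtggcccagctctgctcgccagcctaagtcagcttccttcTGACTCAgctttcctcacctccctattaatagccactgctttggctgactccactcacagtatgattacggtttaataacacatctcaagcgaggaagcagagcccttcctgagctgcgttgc
Syf2 chr4:134938255-134938454: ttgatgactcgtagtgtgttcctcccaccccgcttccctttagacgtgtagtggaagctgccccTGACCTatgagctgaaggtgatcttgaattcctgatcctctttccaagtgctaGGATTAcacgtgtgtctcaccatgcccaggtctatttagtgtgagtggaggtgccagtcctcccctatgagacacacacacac

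The element 195 kb from the start of Runx1, a Runt-domain transcription factor gene, had 61.1 and 52.5 CPM in rods and 12.4 and 4.08 in single-sorted green cones. The one nearest Gm51288 had 115 and 129 CPM in rods and 37.7 and 31.7 in green cones. The one near Syf2, which encodes a splicing factor, had 23 and 20 CPM in rods and 1.46 and 2.72 in green cones. In the double-sorted libraries this last element had 0 counts. Each of the 3 holds 1 match of AGGTCA. The double-sorted libraries had 3.1 and 1.81 CPM near Runx1 and 7.76 and 19.9 near Gm51288. Among the other rod elements of lowest p, an intronic one in Racgap1, a GTPase-activating protein gene, had 51.8 and 62.1 CPM in rods, 13.9 and 8.16 in single-sorted green cones, 3.10 and 0 in double-sorted ones and 0 in both Nrl-/- libraries. An intronic one in Vipr2, a receptor of vasoactive intestinal peptide, had 28.6 and 36.1 CPM in rods and 5.35 and 3.63 in single-sorted green cones. The promoter element of Slc22a28, an organic anion transporter gene, had 14.9 and 14.2 CPM in rods and 0.972 and 0 in single-sorted green cones, a log2 fold change of 4.48 ± 0.57.

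With TMM scaling, green cones had far more elements of their own than rods, and with another scaling given below the balance turned. Of the 50593 tested, 10819 (21.4%) had the higher level in single-sorted green cones and 1481 (2.93%) in rods, and 12% of the calls were thus in rods. Both green cone libraries exceeded both rod libraries at 20986 elements (41.5%), and the reverse held at 17694 (35.0%). With the study's processed reads as library sizes in place of TMM, the median log2 fold change of all elements moved from -0.09 to 0.82, and 7597 elements were called in green cones and 13703 in rods (64.3% of calls). All of those 7597 were among the 10819, and all 1481 rod calls were kept. Changes below are relative to the typical element, as TMM sets it.

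**Figure D1:**
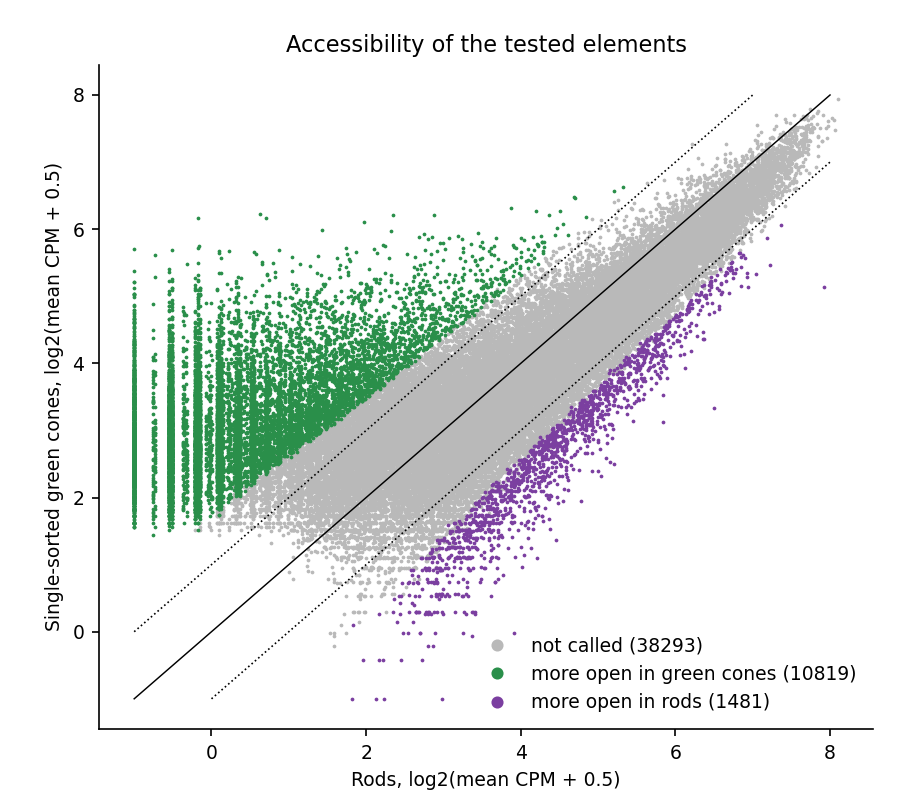
Mean CPM of the 2 rod libraries (x axis) against that of the 2 single-sorted green cone libraries (y axis), both as log2(CPM + 0.5), for the 50593 tested elements (points). The 10819 elements more open in green cones (green) reach down to 0 CPM in rods at the left edge, whereas the 1481 more open in rods (purple) run close to the lower dotted line. The solid line marks equal levels and the dotted lines a log2 difference of 1.

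With TMM scaling the calls differed in size as well as in number, which is a description. With processed reads as library sizes the numbers turned, to 7597 in green cones and 13703 in rods. Most green cone elements had next to no signal in rods and entered the test only through green cones, which makes their fold changes large. How far carried-over rods lowered the fold changes of rod elements cannot be told from these libraries. Elements more open in green cones had a median of 0.657 CPM in rods and 8.16 in single-sorted green cones, with a median log2 fold change of -3.43 (10th to 90th percentile -7.15 to -2.01), and 60.8% of them passed a log2 change of 3. Elements more open in rods had medians of 20 CPM in rods and 5.60 in single-sorted green cones, with a median log2 fold change of 1.77 (1.40 to 2.49), and 3.04% passed a log2 change of 3. In libraries that took no part in the calls, the green cone elements had medians of 9.83 CPM in double-sorted green cones and 6.28 in Nrl-/- photoreceptors, and the rod elements 3.49 and 5.35. Elements called in neither direction had medians between 11.1 and 12.2 CPM in the 4 groups.

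Of the 10819 green cone elements, 6868 (63.5%) had under 1 CPM in rods and 10289 (95.1%) under 5, and only 11 had 20 CPM or more. Elements under 1 CPM in rods could pass the filter on low counts only through green cones, and 96.4% of the 7123 tested were called, so that these calls are a description. The filter's minimum count of 10 lies above 1 CPM in rods, so some elements over 1 CPM there also entered only through green cones. In the opposite direction, 77 of the 1481 rod elements (5.20%) had under 1 CPM in single-sorted green cones, and 331 (22.3%) had under 1 CPM in double-sorted ones. The elements at the edge of the call differed little from those just past it. The last one called in green cones, nearest 1700016K05Rik, had 2.42 and 1.82 CPM in rods and 7.29 and 7.25 in green cones, and the first one missed, nearest Lclat1, had 0.807 and 2.37 against 3.89 and 9.52.

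Both rod libraries had 0 counts at 1751 elements of the whole table, and both single-sorted green cone libraries at 45, although the rod libraries were the deeper ones. The elements come from merged peaks, and the rod list held 29265 peaks against 42685 in the single-sorted and 41346 in the Nrl-/- list. Of the 45, 91.1% lay in a peak of Nrl-/- photoreceptors. The contrast of 1751 and 45 thus depends in part on how the elements were chosen. A limit of 3 counts was set for a count of 0, which is 0.605 and 0.547 CPM in the rod libraries (counting error only). It takes counts as independent, whereas both mates of a fragment appear to be counted, so the true limit is higher. At these 1751 elements the median level was 5 CPM for single-sorted green cones (10th to 90th percentile 1.64 to 11.8, highest 51.4), 6.59 for double-sorted ones and 3.71 in Nrl-/- photoreceptors. In 1539 of them both single-sorted libraries exceeded their own limit of 3 counts. Of the 1751, 1333 entered the test, which they could do only through their counts in green cones, so that their calls say nothing further. Taking 0 counts in a single rod library gave 3107 or 3887 elements with medians of 5.20 or 5.27 CPM in single-sorted green cones. By the deposited peak lists, made per cell type on pooled replicates, 63.7% of the 1751 lay in a peak of single-sorted green cones, 68.6% in one of double-sorted green cones, 48.6% in one of Nrl-/- photoreceptors and 5 elements (0.286%) in one of rods. Over all elements of the table these shares were 84.6%, 73.5%, 82.0% and 60.9%.

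**Figure D2:**
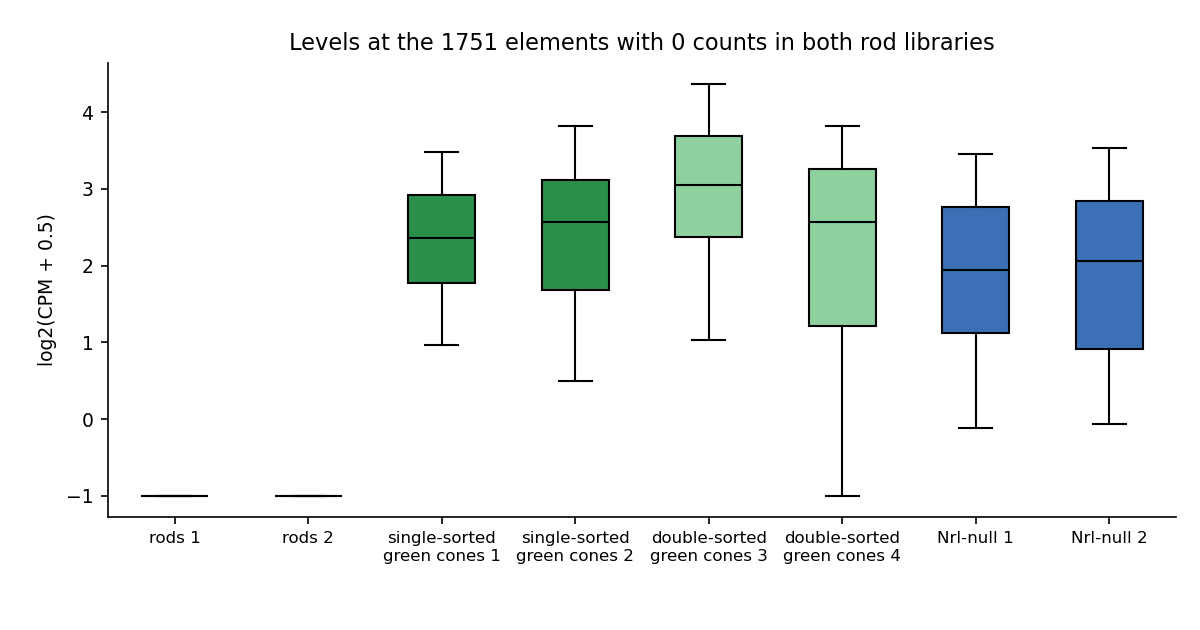
Levels, as log2(CPM + 0.5), in each of the 8 ATAC-seq libraries at the 1751 elements with 0 counts in both rod libraries, which are flat at the bottom because they chose the elements. Boxes show the quartiles and median and whiskers the 10th and 90th percentiles. The medians are 4.62 and 5.44 CPM in the single-sorted, 7.76 and 5.43 in the double-sorted green cones and 3.36 and 3.69 in Nrl-/- photoreceptors.

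The 3 of these elements with the highest level in single-sorted green cones are shown with the same motifs in capitals.
Nova1 chr12:46610075-46610274: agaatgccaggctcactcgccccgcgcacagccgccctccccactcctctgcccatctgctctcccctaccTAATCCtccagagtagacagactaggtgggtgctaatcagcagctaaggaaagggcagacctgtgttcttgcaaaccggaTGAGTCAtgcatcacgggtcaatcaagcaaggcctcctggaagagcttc
Plaat1 chr16:29194089-29194288: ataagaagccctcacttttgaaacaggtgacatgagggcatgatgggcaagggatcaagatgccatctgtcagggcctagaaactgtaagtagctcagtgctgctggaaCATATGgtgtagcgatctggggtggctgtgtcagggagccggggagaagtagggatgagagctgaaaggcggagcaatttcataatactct
Mir3106 chr8:16314678-16314877: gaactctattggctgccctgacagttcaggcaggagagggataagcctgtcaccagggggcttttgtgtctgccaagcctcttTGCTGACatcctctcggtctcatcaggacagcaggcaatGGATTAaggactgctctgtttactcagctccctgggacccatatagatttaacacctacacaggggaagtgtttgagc

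Near Nova1, which encodes a neuronal splicing regulator, the element lay 209 kb from the start site and had 39.4 and 63.5 CPM in single-sorted green cones. Their mean was 85.0-fold the rod limit of 3 counts per library, a limit that paired mates would raise. The element 15.5 kb from Plaat1, a phospholipid acyltransferase gene, had 33.3 and 48.5 CPM (67.6-fold that limit), and the Nrl-/- libraries were higher still with 84.0 and 86.1. The intronic element nearest Mir3106 had 36.5 and 36.7 CPM (60.5-fold), and double-sorted green cones had 62.1 and 67 CPM. The Nrl-/- libraries had 5.88 and 9.46 there, below every green cone library. The other 7 of the highest 10, nearest Irx1, Zfp608, Ipo11-lrrc70, Sh3rf1, Gm6639, Cth and Cpeb2, had 51.9-fold to 60.4-fold the rod limit. Like the Mir3106 element, the one nearest Cpeb2, a translational regulator of mRNAs, was low in Nrl-/- photoreceptors, with 4.2 and 4.38 CPM against 27.5 and 35.4 in single-sorted green cones.

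Genes of phototransduction were read at their promoter element (from 1000 bp before to 100 bp after a RefSeq start site), or where there was none at the nearest element within 100 kb. Of 11 cone phototransduction genes 7 were called in green cones and none in rods, with TMM, with the size factors of DESeq2 and with processed reads alike, beside a background of 21.4% (15% with processed reads). Of the 7, Opn1mw, Cngb3 and Slc24a2 had under 1 CPM in rods and could enter the test only through green cones. Opn1sw, Gnat2 and Pde6h fell short of the filter in at least 1 rod library, and so needed green cones to enter as well. Slc24a2, the sodium, calcium and potassium exchanger of cones, had 0 counts in both rod libraries and 23.6 and 24.9 CPM in single-sorted green cones. Cngb3, a subunit of the cone cyclic nucleotide-gated channel, had 0.403 and 0 CPM in rods against 14.1 and 19.5, a log2 fold change of -6.22 ± 0.67. Opn1sw, the short-wavelength opsin, had 1.82 and 1.09 CPM against 20.9 and 22.7, a change of -3.89 ± 0.40. Its level was 44.9 and 42.2 CPM in Nrl-/- photoreceptors. Pde6h, Gnat2 and Cnga3, which encode the inhibitory subunit of the cone phosphodiesterase, cone transducin and the other channel subunit, changed by -3.29 ± 0.38, -3.13 ± 0.38 and -2.72 ± 0.39. Not all cone genes followed. The elements of Gnb3, Gngt2, Pde6c and Arr3 were not called. At Gnb3, the beta subunit of cone transducin, rods had 46.0 and 39.0 CPM and green cones 47.9 and 48.1, with a log2 fold change of -0.18 ± 0.15.

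Of 14 rod phototransduction genes 6 were more open in rods and none in green cones (background 2.93%), and all 14 were called in rods with processed reads as library sizes, where the background was 27.1%. Pde6b, the catalytic beta subunit of the rod phosphodiesterase, had 65.6 and 66.5 CPM in rods and 18.5 and 15.4 in single-sorted green cones, a log2 fold change of 1.93 ± 0.17 (adjusted p = 3.29e-05). Gnat1, rod transducin, had 122 and 108 CPM in rods and 42.3 and 27.7 in single-sorted green cones, a change of 1.65 ± 0.14. In double-sorted green cones Gnat1 had 1.55 and 5.43 CPM, and in Nrl-/- photoreceptors 0.840 and 0.461. Slc24a1, the exchanger of rods, Cngb1, a subunit of the rod channel, and Pde6a, the alpha subunit of the phosphodiesterase, changed by 1.36 ± 0.21, 1.33 ± 0.19 and 1.23 ± 0.14. Pde6a lost its call without rod replicate 2 (1.15) or single-sorted replicate 1 (1.22), and Slc24a1 and Cngb1 lost theirs without rod replicate 1 (both 1.36) or single-sorted replicate 2 (1.06 and 1.08). Gnb1 and Cnga1 gained a call in rods without single-sorted replicate 1 (1.90 and 1.69). Grk1, Sag and Rgs9, which also serve cones, were not called, with 101 to 128 CPM in rods and 68.3 to 75.7 in single-sorted green cones at Grk1 and Sag.

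**Figure D3:**
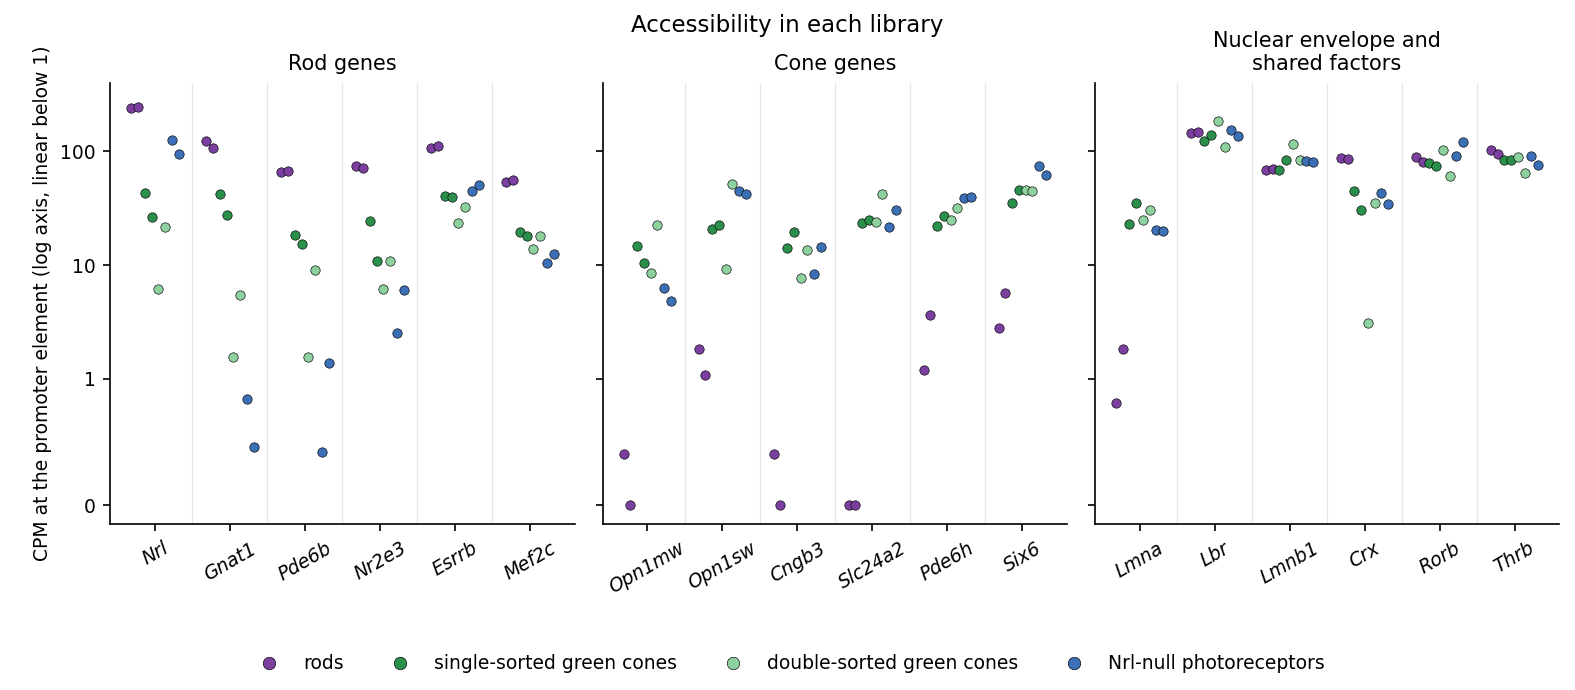
CPM at the promoter element of 18 genes in each of the 8 ATAC-seq libraries (points, coloured by group) on an axis that is logarithmic above 1 and linear below. At the rod genes the 2 rod libraries lie above both single-sorted green cone libraries, at the cone genes and Lmna they lie far below them, and at Lbr, Lmnb1, Rorb and Thrb the groups lie close together. All genes in the rod and cone panels were called, so the gaps there follow from the choice of genes. Genes of the same lists that were not called, Gnb3, Gngt2, Pde6c and Arr3 among them, are left out of those panels.

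Transcription factors of each cell type were read in the same way. Of 7 rod factors 4 were more open in rods and none in green cones (all 7 in rods with processed reads), beside backgrounds of 2.93% in rods (27.1%) and 21.4% in green cones (15%), which hold for the lists that follow too. The Nrl promoter element at chr14:55524915-55525114 had 239 and 244 CPM in rods, 43.3 and 26.3 in the single-sorted libraries, and 127 and 95.1 where Nrl is deleted. Its log2 fold change of 2.72 ± 0.13 (adjusted p = 1.13e-10) had the lowest p of all rod elements. Rods and Nrl-/- photoreceptors carry the Nrl-eGFP transgene, and by their labels green cones do not. Reads of its promoter fragment, where it covers this element, cannot be told apart from those of the Nrl locus. Nr2e3, a nuclear receptor that represses cone genes in rods, changed by 1.93 ± 0.20, Mef2c, a MADS-box factor, by 1.52 ± 0.18, and Esrrb, an orphan nuclear receptor needed for rod survival, by 1.43 ± 0.12. Of 5 cone factors tested, Sall3, Six6 and Rxrg were more open in green cones, with changes of -5.07 ± 0.60, -3.21 ± 0.29 and -2.73 ± 0.27, and Sall3 had under 1 CPM in rods. Thrb, the thyroid hormone receptor that directs opsin choice, was open in both, with 103 and 94.0 CPM in rods and 84.6 and 83.9 in green cones, and was not called. Pou2f2, a POU-domain factor, was not called either with TMM (0.72), but was called in rods with processed reads (1.62). None of 7 factors used by both types (Crx, Otx2, Rax, Neurod1, Prdm1, Rorb and Mef2d) was called with TMM, and 5 were called in rods with processed reads. Without the first single-sorted library Crx was called in rods as well, at 1.49 in place of 1.14, and so was Otx2, at 2.13 in place of 0.74.

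Of 9 outer segment genes only Rom1, a tetraspanin of the disc rim, was called, with 147 and 143 CPM in rods and 68.3 and 47.6 in single-sorted green cones (1.28 ± 0.12). The call ended without the second single-sorted library, at 1.11. None of 9 synaptic genes of photoreceptors was called, although Cacna1f was without single-sorted replicate 1 (1.71). With processed reads 8 and 7 of these genes were called in rods. Among 11 genes of the nuclear lamina and envelope only Lmna, which encodes lamin A/C, was called in green cones (with processed reads 5 others in rods). Its promoter element (chr3:88503208-88503407) had 0.807 and 1.82 CPM in rods, 22.9 and 34.9 in the single-sorted libraries and 20.2 and 19.8 in Nrl-/- photoreceptors, a log2 fold change of -4.37 ± 0.40 (adjusted p = 1.43e-07). Further Lmna elements 6.73 kb upstream and in an intron changed by -3.78 ± 0.40 and -1.57 ± 0.19. The promoter element and the upstream one were too low in rods to pass the filter there, and entered the test through green cones. Lbr, the lamin B receptor, had 144 and 148 CPM in rods and 122 and 139 in green cones, and was not called (0.18 ± 0.10). Both elements at Myc were more open in green cones, at -4.45 ± 0.63 and -4.04 ± 0.75, with 0.807 CPM at most in rods and 5.44 to 11.7 in green cones. None of 8 immediate early genes was called (3 in rods with processed reads).

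Elements at markers of other retinal cells were also called in green cones. More open in green cones were 3 of 4 horizontal cell, 6 of 7 ganglion cell, 5 of 10 bipolar, 2 of 7 amacrine, 2 of 6 Muller glia, 0 of 7 microglia, 1 of 3 endothelial and 2 of 5 pigment epithelium genes tested. The background was 21.4% over all elements, 25.6% at 10 to 50 kb from a start site and 37.5% at 50 to 100 kb, where some of these markers were read, so that the amacrine, Muller glia, endothelial and pigment epithelium counts, which rest on few genes, are no result about those lists. The horizontal, ganglion and bipolar counts rest on few genes as well. Many of their calls were at elements that entered the test only through green cones, as given next, so these counts are a description. Some called markers with over 1 CPM in rods, Calb2 and Onecut1 among them, fell short of the filter in a rod library. Under 1 CPM in rods, and thus in the test only through green cones, were 1 of the 3 called horizontal genes, 4 of 6 ganglion, 4 of 5 bipolar, 1 of 2 amacrine, both Muller glia genes and the endothelial one. None of them was called in rods with TMM, but with processed reads 0 to 2 genes of each list were, and in green cones then 3 bipolar, 5 ganglion and no endothelial or pigment epithelium genes. Leaving out a library ended the calls at Cabp5 (any library), Rbpms, Cdh5 and Ttr (rod replicate 1 or single-sorted replicate 2), Otop3 and Lrat (single-sorted replicate 1), with changes then between -1.22 and -2.99. Without single-sorted replicate 1 Tyrp1 was called in green cones (-2.36) and Slc1a3 and Apoe in rods (2.64 and 7.28). Summed over the horizontal list the level was 14.1 and 18.4 CPM in rods, 90.3 and 120 in the single-sorted libraries, 148 and 110 in the double-sorted ones and 134 and 121 in Nrl-/- photoreceptors. Over the ganglion list it was 46.0 and 45.9 CPM in rods, 87.2 and 131 in the single-sorted libraries, 173 and 87.8 in the double-sorted ones and 121 and 114 in Nrl-/- photoreceptors. Over the microglia list it was 83.9 and 98.4 in rods and 78.3 and 84.8 in single-sorted green cones. Promoter elements changed most at Vim, an intermediate filament of glia (-5.29 ± 0.88), Pou4f1, a ganglion cell factor (-5.16 ± 0.89), Chat, the enzyme of cholinergic amacrine cells (-3.98 ± 0.72), Lhx4, a LIM-homeodomain factor (-3.86 ± 0.53), and Onecut2 and Onecut1, factors of horizontal cells (-3.62 ± 0.27 and -3.53 ± 0.38). Onecut2 had 2.62 and 5.83 CPM in rods, 48.9 and 58.0 in the single-sorted libraries and 78.5 and 70.1 in Nrl-/- photoreceptors. Elements within 100 kb were absent at Isl1, Tfap2b, Gad2, Aqp4, Abca8a, Tek, Flt1 and Rpe65. Nefl and Nefm share an element, and several markers were read at distant elements, so that an element may serve another gene. The part of other cells in the green cone sort was not tested.

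Of 18 neurodevelopmental transcription factors 4 were more open in green cones, among them Sox11, Sox9 and Myc, and none in rods (3 with processed reads). This share is near the background of 21.4%, and all 4 had under 1 CPM in rods. Sox11, which acts in immature neurons, had 0 counts in both rod libraries and 4.86 and 7.25 CPM in single-sorted green cones at a distant element. Without rod replicate 1 Pax6 was called in green cones (-1.95), and without single-sorted replicate 1 Zic1 was called in rods (2.86).

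Away from genes the share of elements called in green cones rose. In promoters 7.30% of 13145 elements were called in green cones and 0.974% in rods, in exons 12.8% and 2.12%, in introns 25.3% and 4.10%, and between genes 32.5% and 3.47%. Within 1 kb of a start site 8.26% were more open in green cones, at 10 to 50 kb 25.6%, at 100 to 500 kb 52.7% and at 500 kb or more 77.6% of 125 elements. The share in rods was highest at 1 to 10 kb, with 4.76%, and was 2.27% at 100 to 500 kb. The median distance to a start site was 29.0 kb for green cone elements, 15.1 kb for rod elements and 3.40 kb for elements not called. The rod level fell with distance from a median of 20.4 CPM within 1 kb to 1.86 at 100 to 500 kb, and the level in single-sorted green cones from 18.6 to 7.55. At 500 kb or more the rod median was 0.202 CPM. Many far elements thus entered the test only through green cones, and nearly all such elements were called, so that the rise is a description. With processed reads the same rise was seen, from 4.79% within 1 kb to 42.7% at 100 to 500 kb. Elements with 0 counts in both rods lay between genes in 49.2%, in introns in 42.4% and in promoters in 4.57%, at a median of 53.7 kb from a start site, against 25.1% in promoters and 8.40 kb for all elements in the table. By chromosome the share in green cones ran from 7.68% on X and 15.4% on 19 to 30% on 18.

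**Figure D4:**
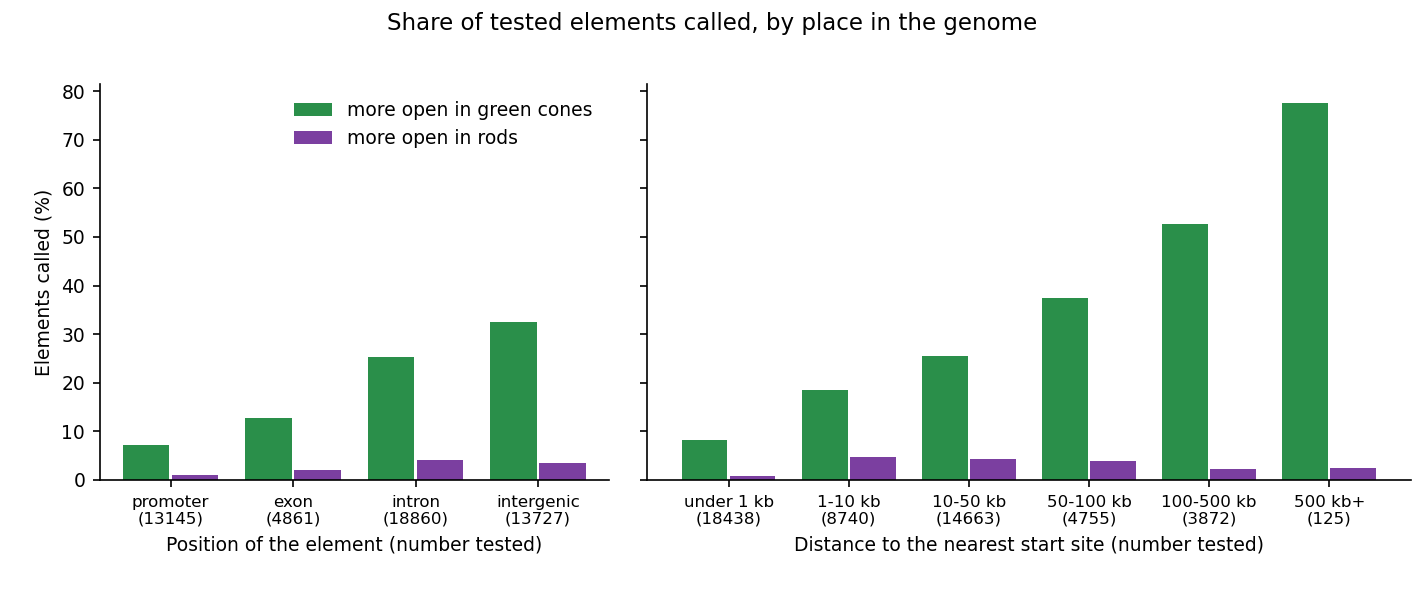
Percentage of tested elements called more open in single-sorted green cones (green bars) and in rods (purple bars) by position (left) and by distance to the nearest RefSeq start site (right), with the number tested in parentheses. The green bars climb from 8.26% within 1 kb to 77.6% at 500 kb or more, and the purple bars stay between 0.852% and 4.76%. Many elements in the far bins were low in rods and entered the test only through green cones.

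Elements more open in green cones, 21.4% of those tested, fell into 4706 runs of neighbouring tested elements, 480 of them of at least 5 elements and 166 of at least 10, with 41.9% of them in runs of at least 5 and 73.5% beside a called neighbour. Rod elements, 2.93% of those tested, fell into 1292 runs, with 22.4% next to another one, and the longest held 5. The shares of neighbours rest on these unequal base rates. Of green cone elements 63.5% had under 1 CPM in rods and entered the test only through green cones. Runs of them are a description. With processed reads, where 15% were called in green cones and 27.1% in rods, the neighbour shares were 68.5% and 69.7%, runs of at least 5 numbered 307 and 472, runs of at least 10 numbered 88 and 55, and the longest held 55 and 29. The longest run of green cone elements held 56 (chr14:22651202-24154752) across Kcnma1, the pore-forming subunit of the BK potassium channel. Summed over the run, rods had 27.8 and 26.2 CPM and single-sorted green cones 538 and 682. A run of 55 elements on chromosome 18 between Zfp608 and Gramd3 had 14.7 and 13.5 CPM in rods, 572 and 652 in the single-sorted libraries and 775 and 823 in Nrl-/- photoreceptors. Others were of 40 elements around Asic2, an acid-sensing ion channel gene, 35 around Cdh13, which encodes T-cadherin, and 31 over Fmn2 and Rgs7. In each of these runs every group other than rods had at least 317 CPM in sum in each library, and the rods had at most 35.2.

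With TMM rod elements had 5 runs of 5 elements each, and with processed reads many more, as given above. Among these were Ldha, which encodes lactate dehydrogenase A (229 and 224 CPM summed in rods, 85.3 and 70.7 in single-sorted green cones), Asrgl1, an asparaginase-like gene (83.5 and 76.9 against 25.8 and 20.9), and a stretch of organic anion transporter genes from Slc22a27 to Slc22a29 (93.8 and 88.6 against 29.7 and 17.2).

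Counted by nearest start site, the genes with the most green cone elements were Zfp608 (44 of 45 tested), Cdh13 (28 of 29), Ptprg, a receptor tyrosine phosphatase (26 of 27), Ntm, the adhesion protein neurotrimin (23 of 61), and Kcnma1 (22 of 22). Those with the most rod elements were Esrrb (7 of 16), Tacc2, a centrosomal protein (6 of 15), 4930505M18Rik (5 of 16), Asrgl1 (5 of 6) and Dmap1, a partner of a DNA methyltransferase (5 of 11). At Kcnma1 every element was called in green cones, whereas at Esrrb 9 of 16 were not called. RNA was at hand for rods and Nrl-/- photoreceptors only. Zfp608 RNA was 0.0506, 0.261 and 0.723 CPM in rods and 29.1, 22.9 and 24 in Nrl-/- photoreceptors. Kcnma1 RNA was 2.68, 2.35 and 5.12 CPM in rods and 40.9, 32.7 and 43.2 in Nrl-/- photoreceptors. Ntm RNA differed less, with 117 to 180 CPM against 211 to 229. Esrrb RNA was 228 to 282 CPM in rods and 11.4 to 16.9 in Nrl-/- photoreceptors, and Dmap1 RNA 30.5 to 34.7 and 27.0 to 28.0.

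Over all nearest genes, the median log2 fold change of RNA, rods over Nrl-/- photoreceptors, was -0.41 for the 2678 genes of green cone elements that passed the RNA filter, 0.49 for the 870 of rod elements and 0.01 for all 10920. For elements in promoters alone the medians were -2.10 (559 genes) and 1.03 (99 genes). Without the filter the medians were -0.18 and 0.36 over all elements and -1.20 and 0.92 in promoters. A gene low in rods could pass the filter only through the Nrl-/- libraries. These medians describe Nrl-/- photoreceptors and not green cones, and neighbouring elements share a gene. Of the genes nearest green cone elements, 56.5% passed the filter on low RNA counts, against 77.3% for rod elements and 70.2% for all.

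Motifs were counted as exact matches on either strand within the 200 bp, with matches of different motifs free to overlap. TAATCC was found in 27.8% of green cone elements, 39.6% of rod elements, 18.3% of elements not called and 21.0% of all tested. AGGTCA had the same order, with 19.3%, 27.5%, 13.1% and 14.9%. TGCTGAC was found in 4.70%, 6.75%, 3.69% and 3.99%. TGANTCA went the other way, with 13.0% in green cone elements, 5.4% in rod elements, 4.41% in elements not called and 6.28% in all. CAGCTG, an E-box, was found in 18.4%, 12.2%, 13.7% and 14.7%. GGGCGG, the GC box of promoters, was found in 12.3% and 10.8% of the called elements and 32.7% of those not called, and the core of the CTCF motif in 11.1%, 8.24% and 16.0%. TAATTA (6.97% and 7.16%), CATATG (3.51% and 3.92%), CTATTTT of the MEF2 family (3.60% and 3.38%) and CCAAT (24.3% and 24.6%) had like shares in both kinds of called element, against 3.51%, 2.08%, 2.1% and 24.8% of elements not called. Outside promoters the order of TAATCC (29.7%, 41.9% and 24.4%) and TGANTCA (13.9%, 5.4% and 5.36%) was as before. The classes also differed in base composition, with a median GC of 50% in green cone elements, 48.5% in rod elements and 55.5% in those not called, and its part in these shares was not tested.

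**Figure D5:**
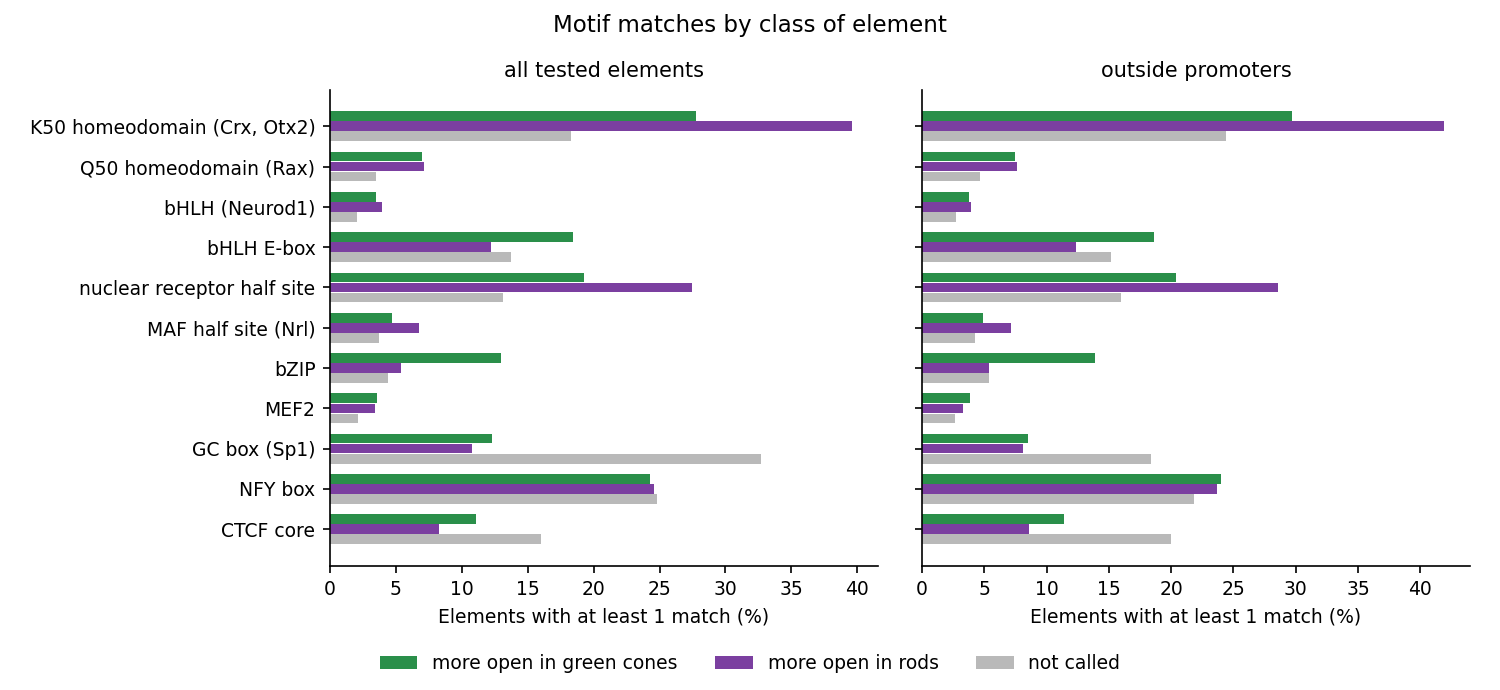
Percentage of elements with at least 1 exact match of each of 11 motifs among those more open in single-sorted green cones (green), more open in rods (purple) and not called (grey), for all tested elements (left) and outside promoters (right). Purple exceeds green for the K50 homeodomain motif TAATCC (39.6% against 27.8%), and green exceeds purple for the bZIP motif TGANTCA (13.0% against 5.4%).

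Peak lists of the study were set beside the calls. Of the green cone elements 87.7% lay in a peak of single-sorted green cones, 7.15% in one of rods, 78.4% in one of double-sorted green cones and 64.9% in one of Nrl-/- photoreceptors. Of the rod elements 98.5% lay in a rod peak, 57.5% in one of single-sorted green cones and 27.1% in one of double-sorted green cones. Over all tested elements the shares were 87.5% for single-sorted green cones, 63.6% for rods, 75% for double-sorted green cones and 82.4% for Nrl-/- photoreceptors, so that the shares of green cone elements in both green cone lists were near the background. The lists and the calls come from the same reads, so that a cell type found in its own list is no separate evidence.

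The level of rod signal in the green cone libraries was read at elements chosen without them, 1573 elements more open in rods than in Nrl-/- photoreceptors with at least 20 CPM in rods. There the single-sorted libraries had a median of 47.9% and 39.8% of the rod level, the double-sorted ones 23.1% and 31.9%, and the Nrl-/- libraries, which took part in the choice, 29.6% and 31.2%. The lowest shares were 6.78% and 3.92% in the 2 single-sorted libraries. Over all 14540 elements with at least 20 CPM in rods the medians were 75.1% and 72.1% in the single-sorted libraries and 60.3% and 71.2% in the double-sorted ones. In the test of single-sorted against double-sorted green cones, none of 2065 elements more open in rods than in Nrl-/- photoreceptors passed an adjusted p of 0.1 with edgeR, nor any of all 40884 tested, and DESeq2 gave 0 as well. At an unadjusted p under 0.05, 368 of these elements (17.8%) were higher and 2 lower in single-sorted green cones, against 1383 (3.38%) higher and 1150 lower among all. Their median log2 fold change, single-sorted over double-sorted, was 0.57, and that of all elements 0.01. Leaving out double-sorted replicate 3 gave 163 of these elements higher (5.96%) and 3 lower, against 603 (1.23%) and 234 among all tested. Leaving out replicate 4 gave 778 higher (28.5%) and 18 lower, against 5395 (10.9%) and 4030 among all. How much of the green cone signal at rod elements came from carried-over rods and how much from green cones cannot be told apart in these libraries. At the 1751 elements without a count in rods, the limit of rod signal to carry over was 0.605 CPM if counts are independent. Paired mates would raise that limit.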

How the data were processed

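ATAC-seq was analysed in 8 libraries and RNA-seq in 6. Per the labels and the study's methods, the authors aligned ATAC-seq reads with Bowtie2 2.2.3, removed duplicates with Picard 1.121, called peaks with MACS2 2.1.0 and counted reads in merged 200 bp elements with bedtools 2.24.0. The deposited tables hold raw counts per element and per gene (STAR 2.4.2a, HTSeq 0.6.1p1), and both mates of a fragment appear to be counted. The RNA table also has reads without a gene (41.3% to 49.2% of each library), which were left out. The deposited peak lists hold a MACS2 score, a fold enrichment as a ratio, −log10 p and −log10 q, of which positions and −log10 q were used.

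Counts of the 4 libraries were filtered with filterByExpr, scaled by TMM and fitted with edgeR 4.0.16 (quasi-likelihood, glmTreat against a log2 fold change of 1, no covariate), as the threshold of the study with DESeq2 is. The scripts were tested on simulated data. CPM of the other libraries used the same TMM reference. Elements were annotated with RefSeq for GRCm38 (31647 start sites, 26180 genes), and the RNA table held 15833 of 16835 nearest genes, 671 under a synonym. Named were up to 4 genes of each list by size of change, the 10 elements of lowest p in each direction, the 10 highest without counts in rods, the 5 genes with the most called elements in each direction, and Nrl, Opn1mw, Lmna, Lbr and Myc. Not every element the rule gives is reported here. Members, lists and motifs were chosen with earlier results of these data known. Alternatives were other scalings, filters, DESeq2 1.42.0, an F test, thinning, a replicate block, all 8 libraries and each library left out. Some genes counted in the list totals are not reported here by name.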

Additional observations from a re-analysis of the deposited data

How the results depend on the processing

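The main counts were 10819 elements more open in green cones and 1481 in rods. Requiring at least 1 CPM in all 4 libraries gave 3095 and 543, since it removes elements that are near 0 in rods. DESeq2 against the same fold change gave 6421 and 243, and edgeR's F test against no change gave 16681 and 12890. With processed reads as library sizes rods had 13703. Leaving out 1 library at a time, with the lone library assumed to vary like the others, gave 7567 to 10537 in green cones and 1068 to 2214 in rods, and no call changed direction in any of these fits. For single-sorted against double-sorted green cones the 0 calls at rod elements became 0 to 778 higher and 0 to 18 lower in single-sorted libraries when 1 library was left out (163 and 3 without double-sorted replicate 3, 778 and 18 without replicate 4), and those among all elements 603 and 234 without replicate 3 and 5395 and 4030 without replicate 4. The cause was not tested. Size factors of DESeq2, no filter, thinning and the fit of all 8 libraries kept both counts within 1.5 times. With the replicate number as a block 10224 elements were called in green cones and 1480 in rods. Libraries of the same number did not deviate together (r = 0.031 across 50593 elements), so the numbers were not taken to pair them. Of 78 named calls, 16 were lost with DESeq2, 7 with processed reads and 2 to 7 without 1 library. Processed reads also added a call at 57 of the 183 named elements, and the F test against no change at 69. Depth limits elements with few counts, and 2611 were too low to test.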
